A study of Mus musculus with 4 samples.

Results

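The cytosolic ribosomal protein genes are the genes that encode the proteins of the large and small subunits of the ribosome in the cytosol. They were taken by name: every row of the array table that carried exactly 1 gene symbol, where that symbol had the form of a ribosomal protein gene (Rpl or Rps with a number, or Rplp0 to Rplp2). This gave 210 rows for 58 genes, 37 of the large and 21 of the small subunit, out of 21789 rows with 1 symbol for 19938 genes. Where a gene had several rows, the row with the highest mean over the 4 arrays stood for it. The samples came from ICR mice, an outbred stock, which according to the methods were 1 month old when obtained. Ketamine, which blocks NMDA receptors for glutamate, was injected intraperitoneally every day at 30 mg/kg, or saline in its place, and the methods give 3 months of treatment. There were 4 Affymetrix Mouse Gene ST arrays, 2 titled saline and 2 titled ketamine, each of brain RNA from a separate mouse. The labels are at odds over the treatment: in their source field the 2 arrays titled saline are ketamine samples and the 2 titled ketamine are saline samples. Groups are named by title here, and a difference is always the mean of the arrays titled ketamine minus the mean of those titled saline, so each direction turns around if the source field is right. The mice are female in the labels and male in the methods.

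Each ribosome is built from ribosomal RNA and one copy of most of these proteins, with the small subunit reading the mRNA and the large subunit joining the amino acids. Ribosomal protein genes are among the most strongly transcribed genes of most cells, and their mRNAs begin with a tract of pyrimidines, the 5′ terminal oligopyrimidine or TOP tract. Through this tract the mTORC1 kinase complex controls their translation. In neurons, ribosomes lie in the cell body and also in dendrites and axons, where they serve local protein synthesis. The genome also holds many processed copies of these genes, so a row of array probes can read more than one locus.

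The values are log2 expression values, with array medians of 5.90 and 5.91 on the arrays titled saline and 6.04 on both arrays titled ketamine, so that the median gene was higher by 0.13 on the log2 scale in the arrays titled ketamine. For this reason the main counts, medians and calls are also given after each array was centred on its median. A difference not said to be centred is as deposited. The tissue is labelled prefrontal cortex, but 15 of 16 measured cerebellar markers were higher and 12 of 14 forebrain neuron markers lower on the arrays titled ketamine, with no member of either list called the other way. The median level of the cerebellar list was 6.05 and 5.47 on the arrays titled saline and 9.40 and 9.12 on those titled ketamine. For the forebrain list it was 7.998 and 8.01 against 5.78 and 5.53. Markers of choroid plexus (7 of 8 higher) and microglia (8 of 9 lower) also differed. Among all genes 23.2% were called higher and 9.92% lower. The 8 astrocyte markers went both ways, with 3 higher and 1 lower. Of 7 oligodendrocyte markers 0 passed in limma in either direction, also at an unadjusted p under 0.05. The title and the tissue composition cannot be told apart in any comparison below, and in bulk RNA fewer cells of a type cannot be told apart from less RNA per cell. Calls are from limma with Benjamini-Hochberg adjustment at an adjusted p under 0.05.

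Most ribosomal protein genes were not called different between the titles, which with 2 arrays per title does not show that they were equal. As deposited, 3 of the 58 genes were higher on the arrays titled ketamine (Rpl30, Rplp2 and Rps27l) and 1 was lower (Rpl41), while 54 did not pass the test. At an unadjusted p under 0.05 there were 6 higher and 6 lower, beside 31.9% and 12.9% of all genes. By adjusted p, 23.2% of all genes were called higher and 9.92% lower, so both shares were smaller among the ribosomal protein genes. The median log2 difference of the 58 genes was -0.011, beside 0.13 for all genes, and 47 of the 58 lay below the median of all genes. After centring, the same 3 were higher and 7 were lower (Rps2, Rpl41, Rplp1, Rps15, Rpl36a, Rpl9 and Rps4x), against 14.4% and 15.1% of all genes, and the median was -0.15. The median of the uncentred differences was 0.041 without titled ketamine array 1 and -0.099 without array 2, so its sign turned with single arrays. Without either array titled ketamine limma called no gene of the whole table, although 5974 rows without array 1 and 6461 without array 2 had an unadjusted p under 0.05, among them 5 and 9 ribosomal protein genes.

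**Figure D1:**
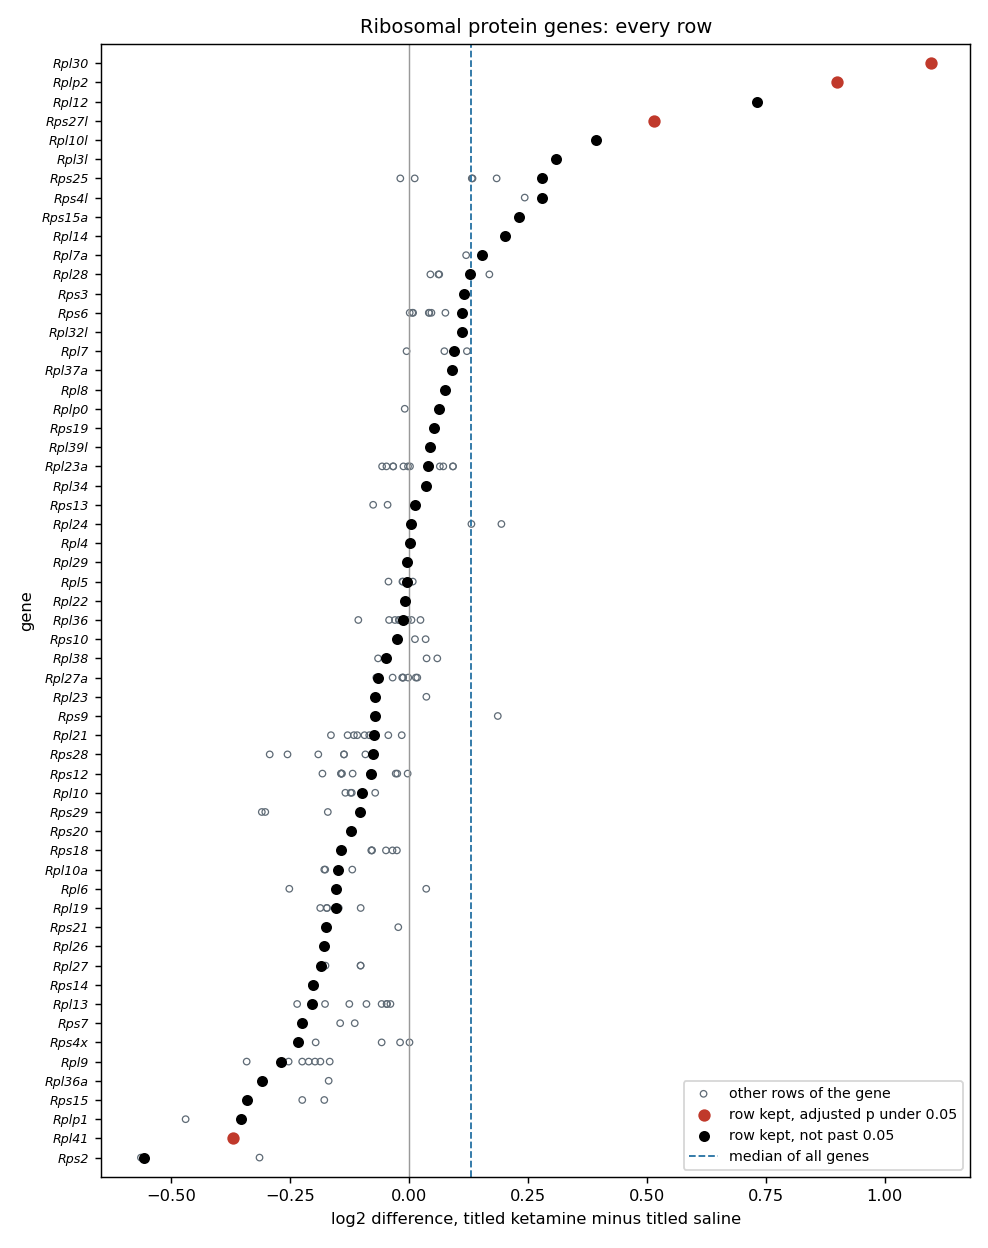
Log2 difference, titled ketamine minus titled saline, for each of the 58 ribosomal protein genes (one line per gene, 2 arrays per title). Filled points are the row kept for the gene, red where its adjusted p was under 0.05, open points are its other rows, and the dashed line is the median of all genes at 0.13. The points form a band around 0 that lies mostly left of the dashed line, with Rpl30, Rplp2 and Rpl12 far to the right of it.

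By size alone, using the 1.3-fold threshold of the study, 5 of the 58 genes were higher (Rpl30, Rplp2, Rpl12, Rps27l and Rpl10l) and 1 was lower (Rps2), beside 24.0% and 10.1% of all genes. After centring there were 3 and 6, beside 14.9% and 15.3%. In 13 genes both arrays titled ketamine lay above both titled saline, in 19 both lay below, and in 26 the groups overlapped. Over all genes the groups were apart upward in 48.4% and downward in 21.8%. The large subunit genes had a median difference of -0.0033 (-0.14 centred) and the small subunit genes of -0.076 (-0.21 centred). The difference between the subunits was not tested. Without titled ketamine array 1 the small subunit median was -0.0058, and without array 2 the large subunit median was -0.085.

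The genes with the largest positive differences were read by rows of low or middling value. Rpl30, which encodes a small RNA-binding protein of the large subunit, read 6.86 and 6.47 on the arrays titled saline and 8.16 and 7.36 on those titled ketamine. Its means were 6.66 ± 0.273 (SD, n = 2 arrays) and 7.76 ± 0.563 (SD, n = 2), a log2 difference of 1.10 (SE 0.256, adjusted p = 0.0165 in limma). Both arrays titled ketamine were higher, but they differed from each other by 0.80. The call was lost when any 1 array was left out: the difference was then 1.29 or 0.90 without titled saline array 1 or 2 (adjusted p = 0.0720 and 0.144) and 0.70 or 1.50 without titled ketamine array 1 or 2 (0.238 and 0.130).

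Rplp2 encodes one of the acidic proteins of the stalk, the flexible arm of the large subunit that recruits elongation factors. It read 4.95 and 4.66 on the arrays titled saline and 5.84 and 5.57 on those titled ketamine, and the log2 difference was 0.90 (SE 0.147, adjusted p = 0.00414). Without titled ketamine array 1 the adjusted p was 0.181 and without array 2 it was 0.137, with differences of 0.76 and 1.03. Rps27l encodes a paralogue of the small subunit protein S27 and is known as a target of p53. Its values were 5.18 and 5.16 against 5.66 and 5.71, with close agreement within each title and a log2 difference of 0.51 (SE 0.104, adjusted p = 0.00965). The call was lost without titled saline array 2 (0.50, adjusted p = 0.0502) and without titled ketamine array 1 or 2 (0.54 and 0.48, adjusted p = 0.133 and 0.121).

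Rpl12, a protein of the base of the stalk, read 4.34 on both arrays titled saline and 5.60 and 4.55 on those titled ketamine. Most of its difference of 0.73 (SE 0.295, adjusted p = 0.0982) came from titled ketamine array 1: without that array it was 0.21, and without array 2 it was 1.25. On 1 array Rpl12 lay within the range of the olfactory receptor rows, which were used as a reference for low signal. The 95th percentile of their 1035 values was 4.20 and 4.43 on the arrays titled saline and 4.56 and 4.46 on those titled ketamine. Of the 58 genes, 54 were above this level on every array.

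Rpl41, which encodes a very short basic protein of the large subunit, was the gene called lower as deposited. It read 10.45 and 10.40 on the arrays titled saline and 10.01 and 10.10 on those titled ketamine, and the log2 difference was -0.37 (SE 0.107, adjusted p = 0.0348), and the groups did not overlap. The difference stayed between -0.41 and -0.33 when any 1 array was left out, but the adjusted p was then 0.105 or 0.0819 without titled saline array 1 or 2 and 0.171 or 0.136 without titled ketamine array 1 or 2. Centred, it was -0.51 (adjusted p = 0.00985).

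Rps2, a protein at the point where mRNA enters the small subunit, had the most negative difference. Its values were 11.34 and 11.78 on the arrays titled saline and 10.71 and 11.30 on those titled ketamine. The groups were apart by a narrow margin, and the arrays of each title differed by 0.45 and 0.59. The log2 difference was -0.56 (SE 0.221, adjusted p = 0.0943), and -0.69 with adjusted p = 0.0329 after centring. It was between -0.85 and -0.26 when single arrays were left out.

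Another 5 genes were called lower after centring and not before it. Rplp1, the partner of Rplp2 in the stalk, read 11.29 and 11.47 against 11.02 and 11.03, a difference of -0.35 (adjusted p = 0.0516) and -0.49 centred (0.0136). Rps15, a protein of the head of the small subunit, read 9.76 and 9.83 against 9.36 and 9.55, a difference of -0.34 (adjusted p = 0.0622) and -0.48 centred (0.0170). In both genes both arrays titled saline were the higher ones. Those of Rplp1 differed by 0.19, and its difference was -0.45 or -0.26 without titled saline array 1 or 2. Rpl36a read 9.25 and 9.21 against 8.78 and 9.07, a difference of -0.31 (adjusted p = 0.107) and -0.45 centred (0.0319). Rpl9 read 11.65 and 11.62 against 11.33 and 11.40, a difference of -0.27 (adjusted p = 0.0910) and -0.40 centred (0.0257). Rps4x, the X-linked gene of protein S4, read 8.64 and 8.74 against 8.37 and 8.55, a difference of -0.23 (adjusted p = 0.166) and -0.37 centred (0.0466). Rps7 came next, at -0.22 as deposited and -0.36 centred (adjusted p = 0.0503), just outside the threshold. Without titled ketamine array 1 the deposited differences of Rpl36a, Rps4x and Rps7 were -0.16, -0.14 and -0.13, and without array 2 they were -0.45, -0.32 and -0.32.

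**Figure D2:**
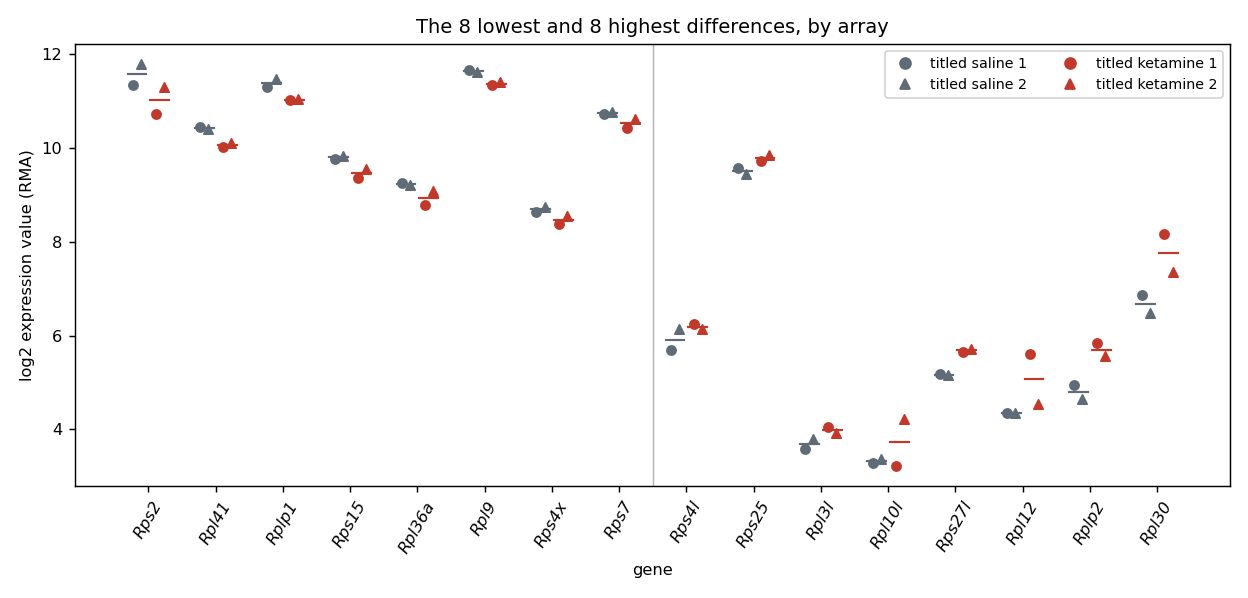
Log2 value on each of the 4 arrays for the 8 ribosomal protein genes with the most negative difference (left of the line) and the 8 with the most positive (right). Circles are array 1 and triangles array 2 of each title, grey for saline and red for ketamine, and bars are the means of the 2 arrays. Rpl30, Rpl12, Rpl10l and Rps2 show the widest gaps between arrays of one title.

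By place in the ribosome, the stalk held both directions. Its 4 genes were Rplp2 and Rpl12 with positive differences, Rplp1 with a negative one, and Rplp0, the anchor of the stalk, at 0.064 (10.01 and 10.19 against 10.13 and 10.20). Rplp2 was the only one of the 4 called as deposited, and centring added Rplp1 as lower. Rpl5, which binds the 5S ribosomal RNA together with Rpl11, read 10.33 and 10.24 against 10.19 and 10.38, a difference of -0.0040, and Rpl11 had no row of its own.

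At the mRNA entry site Rps3, Rps9 and Fau had differences of 0.12, -0.071 and 0.020 beside that of Rps2. Fau, which encodes the S30 protein fused to a ubiquitin-like protein, has a name outside the pattern and is not counted among the 58. At the mRNA exit site Rps14 was at -0.20 and Rps28 at -0.076, and Rps26 had no row of its own. None of these 5 passed the test on either scale. The tunnel through which the new protein leaves, with its exit, was represented by 5 genes of 9 listed, between -0.18 (Rpl26) and 0.040 (Rpl23a), with 0 called on either scale. Of 9 genes mutated in Diamond-Blackfan anaemia, an inherited failure of red cell production, 4 were measured, between -0.22 (Rps7) and 0.053 (Rps19), also with 0 called. In limma on the deposited values, neither of these last lists had a gene at an unadjusted p under 0.05.

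Rps6, whose protein is the classic substrate of S6 kinase, read 11.27 and 11.18 on the arrays titled saline and 11.30 and 11.37 on those titled ketamine. The groups did not overlap, but the difference of 0.11 was about the size of its SE in limma (0.108, adjusted p = 0.457). The difference was -0.024 after centring. Rps25, a small subunit protein used by some viral mRNAs to start translation, had the largest positive difference among the 34 genes whose kept row had a mean of at least 9, at 0.28 (9.56 and 9.43 against 9.71 and 9.85, adjusted p = 0.104) and 0.14 centred.

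Of the 79 standard ribosomal protein genes of mammals 52 were among the 58. Another 3 (Rpsa, Fau and Rps3a1) had a row under a name outside the pattern, and 16 appeared only in rows with several symbols. The rest were not analysed here. The 52 had a median difference of -0.057 (-0.19 centred). As deposited 2 of them were called higher and 1 lower, beside 23.2% and 9.92% of all genes. After centring these counts were 2 and 7, beside 14.4% and 15.1%.

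The other 6 of the 58 were relatives of standard genes: Rpl3l, Rpl10l, Rpl39l, Rpl32l, Rps4l and Rps27l. As deposited all 6 had positive differences, as did 65.58% of all genes. After centring 4 of the 6 did, beside 49.35% of all genes. Their median was 0.29 (0.16 centred), and of these Rps27l alone passed the test. Rpl3l is known from striated muscle and Rpl10l and Rpl39l from the testis. These 3 genes lay at or below the 95th percentile of the olfactory receptor rows on all 4 arrays, so their differences of 0.31, 0.39 and 0.045 were not resolved from low signal. Rpl10l read 3.28 and 3.38 against 3.22 and 4.23, and without titled ketamine array 2 its difference was -0.11. Of the genes they resemble, Rpl10 was at -0.099, Rps4x at -0.23, and Rpl3, Rpl39 and Rps27 had no row with 1 symbol. Rps4l, a transcribed pseudogene in RefSeq, was at 0.28 (5.69 and 6.13 against 6.25 and 6.14, adjusted p = 0.213) and 0.14 centred. Its difference was 0.061 without titled saline array 1 and 0.50 without array 2.

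Rpl7l1, a relative of Rpl7 that is known from ribosome assembly and has a name outside the pattern, read 7.19 and 7.15 against 7.79 and 7.93. It was higher by 0.69 (SE 0.109, adjusted p = 0.00358), and by 0.56 after centring (adjusted p = 0.00686). Rpl7 itself was at 0.095 (adjusted p = 0.550) and -0.041 centred.

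Many of these genes are read by more than one row, which gives a second view of each difference. There were 38 genes with 2 or more rows (190 rows in all), and 30 with 3 or more. Within a gene, the range between the lowest and the highest difference had a median of 0.12, and the widest was 0.30, for Rps25. The range of levels was wider, with a median of 0.77 and a maximum of 2.43 between the rows of Rpl23, which describes the probes of each row and not amounts of RNA. In 24 of the 38 genes all rows had differences of one sign.

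Among the 30 genes with 3 or more rows, as deposited all rows were below 0 in 15, all above 0 in 4 (Rpl24, Rpl28, Rpl7a and Rps6) and on both sides in 11. After centring all rows were below 0 in 26, all above 0 in 0, and on both sides in 4 (Rpl24, Rpl28, Rpl7a and Rps25). The ranges that follow are of deposited differences. The 14 rows of Rps12 ran from -0.18 to -0.0027 and the 13 rows of Rpl23a from -0.056 to 0.092. Rpl13, Rpl21, Rpl27a and Rpl36, with 9 rows each, ran from -0.23 to -0.039, from -0.16 to -0.015, from -0.069 to 0.018 and from -0.11 to 0.024. All 8 rows of Rpl9 were below 0, from -0.34 to -0.17, and 5 of them passed after centring. All 8 rows of Rps6 were above 0 as deposited, by 0.0016 to 0.11, and below 0 after centring, from -0.13 to -0.024, with 0 called. Rps18 (7 rows, -0.14 to -0.025), Rpl19 (7 rows, -0.19 to -0.10), Rpl10 (6 rows, -0.13 to -0.071), Rpl10a (4 rows, -0.18 to -0.12), Rpl27 (4 rows, -0.19 to -0.10) and Rps7 (3 rows, -0.22 to -0.11) were below 0 in every row, with 0 rows called on either scale in limma and, like Rps6, 0 at an unadjusted p under 0.05 as deposited.

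Rows of one gene did not always lead to the same call. The 3 rows of Rps2 had differences of -0.56, -0.56 and -0.31 with adjusted p of 0.0943, 0.0287 and 0.0885, so that a row other than the one kept was called lower. For Rplp1 the second row, at -0.47 (adjusted p = 0.0188), was called and the one kept was not. Rps28 and Rps29 were not called through the row kept, and 2 rows of each were called lower after centring. In Rps4x the 5 rows ran from -0.23 to 0.0012, and in Rpl6 the 3 rows from -0.25 to 0.036.

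Rows of a gene are not independent. In 5 genes 19 rows had values equal to another row of the same gene on all 4 arrays, leaving 198 distinct sets of values among the 210 rows, and the 3 rows of Rpl41 were one such set. Counted by row, 3 of 210 were higher and 5 lower (3 of Rpl41, 1 of Rplp1 and 1 of Rps2), beside 23.4% and 9.71% of all rows. After centring 3 were higher and 22 lower, beside 14.7% of all rows each way. The genes with the largest positive differences, Rpl30, Rplp2, Rpl12 and Rps27l, had 1 row each, so this view could not be had for them.

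A further 235 rows carried several symbols of which at least one was a ribosomal protein gene, and these values cannot be given to a single gene. Their median difference was -0.0995, and 185 of them were negative. For some of the genes above they read differently from the row with 1 symbol. The 10 rows that listed Rpl30 beside other symbols had mean values from 11.48 to 12.11 and differences from -0.079 to 0.019, where the single row of Rpl30 was at 1.10. The 8 rows that listed Rpl12 ran from -0.35 to 0.11, where its own row was at 0.73. Which loci each row reads was not tested.

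For Rps2 and Rpl41 the rows with several symbols pointed the same way as their own. All 17 rows that listed Rps2 were between -0.69 and -0.59, and these were the 17 of the 235 rows past 1.3-fold lower. Both rows that listed Rpl41 were near -0.25, and both rows that listed Rps27 were at -0.35 and -0.33. Just 2 of the 235 were past 1.3-fold higher: a row listed as Snord14a and Rps13 (5.22 and 4.998 against 6.13 and 5.92, a difference of 0.91) and one listed as Snord68 and Rpl13 (3.10 and 3.60 against 4.06 and 3.95, a difference of 0.65). Each pairs a ribosomal protein gene with a small nucleolar RNA. The kept rows of Rps13 and Rpl13, with 1 symbol, were at 0.013 and -0.20. All 3 rows of Rps13 with 1 symbol ran from -0.075 to 0.013, and the 9 of Rpl13 from -0.23 to -0.039.

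**Figure D3:**
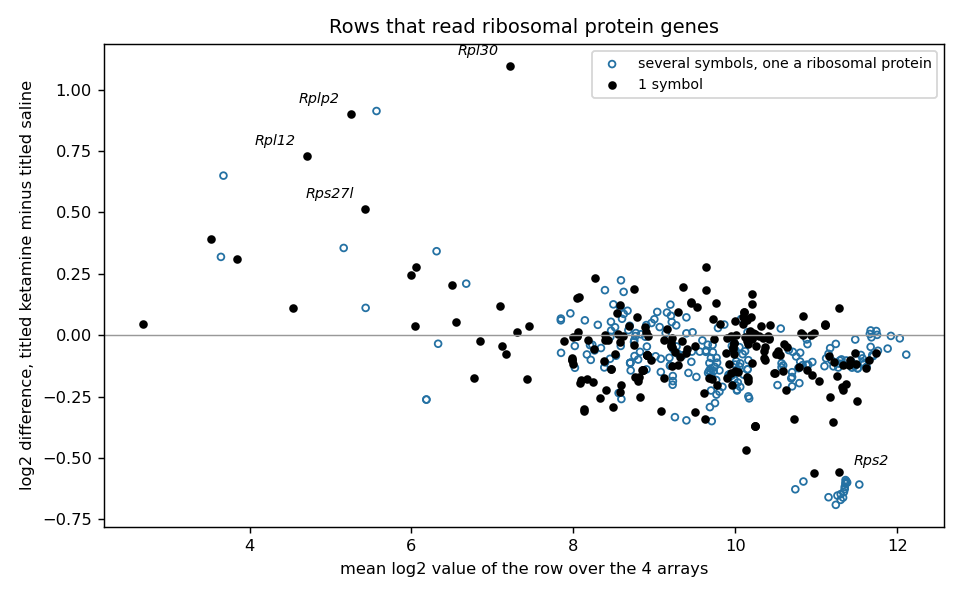
Log2 difference, titled ketamine minus titled saline, against the mean log2 value over the 4 arrays, for the 210 rows with 1 symbol (filled) and the 235 rows that list a ribosomal protein gene among several symbols (open). Apart from the rows of Rps2 and those that list it, at the lower right, rows with values above 8 lie between -0.47 and 0.28, and the large positive differences are in rows with values below 8.

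Filters on the level of a row were applied. Among rows with a mean at or above the median of all rows, 51 ribosomal protein genes remained, with a median difference of -0.065 beside 0.16 for the other genes there. Among rows with a mean of at least 9 there were 34, with a median of -0.073 beside 0.11 for the others, and 30 of the 34 were below the median of the others. Centred, the medians were -0.21 and -0.029. At this level the test, run on those rows alone, called 1 ribosomal protein gene higher (Rps25) and 4 lower (Rpl41, Rplp1, Rps15 and Rpl9) of the 34, beside 31.5% and 15.7% of all genes at that level. Genes that passed a filter on level are not all members, and these counts describe those 51 or 34 genes only.

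The starts of the genes at both ends of the list are shown because the TOP tract lies at the first bases of these mRNAs. The sequences are from RefSeq on GRCm38.p6, whose promoter table held 46 of the 58 genes (not Rpl30 or Rplp1), and each run is the 10 bases before and the 20 from the annotated start on, in the direction of transcription, with the letters CTTTC in capitals. The first 3 genes had the largest positive and the last 3 the most negative differences among the genes in the table.
Rplp2 (chr7:141447641-141447670, plus strand): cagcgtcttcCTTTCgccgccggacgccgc
Rpl12 (chr2:32961702-32961731, plus strand): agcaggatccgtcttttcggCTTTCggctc
Rps27l (chr9:66946076-66946105, plus strand, the first of 2 starts): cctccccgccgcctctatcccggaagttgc
Rps2 (chr17:24720053-24720082, plus strand): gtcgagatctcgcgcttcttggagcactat
Rpl41 (chr10:128549149-128549178, minus strand): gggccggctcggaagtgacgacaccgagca
Rps15 (chr10:80292421-80292450, plus strand): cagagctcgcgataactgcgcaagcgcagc

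The run CTTTC, a short stretch of the kind found in TOP tracts, was searched on the sense strand of these 30-base windows. It was present in 8 of 55 windows of the ribosomal protein genes (14.5%) and in 3.74% of the 32851 windows of the table. Whether its matches share bases with those of the next motif was not checked. CCGGAAG, the core of sites bound by ETS factors such as GABP, was searched on both strands of the 300 bases from 250 before to 50 after the start. It was present in 18 of the 55 windows (32.7%) and in 8.86% of all windows. An annotated start need not be the base where transcription begins in this tissue, and a match is a run of letters and not a bound site.

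Arrays of one title also differed from each other across this group of genes. Within the arrays titled ketamine, array 2 was higher than array 1 in 51 of the 58 genes, with a median of 0.12, while over all genes the median was -0.0033 and 48.7% were higher. Within the arrays titled saline, array 2 was higher in 39 of the 58, with a median of 0.066, against 0.0052 and 50.5% for all genes. Between titles the median was -0.011 as deposited and -0.15 after centring. Beyond 1.3-fold, 5 of the 58 genes differed within the arrays titled saline and 6 within those titled ketamine, beside 8.40% and 5.79% of all genes. Differences within a title are of single arrays, and those between titles are of means of 2 arrays. Neither the medians nor the counts are therefore set against each other. Single genes with more than 0.5 between arrays of one title were Rpl12 (-1.04), Rpl10l (1.01), Rpl30 (-0.80) and Rps2 (0.59), all within the arrays titled ketamine.

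**Figure D4:**
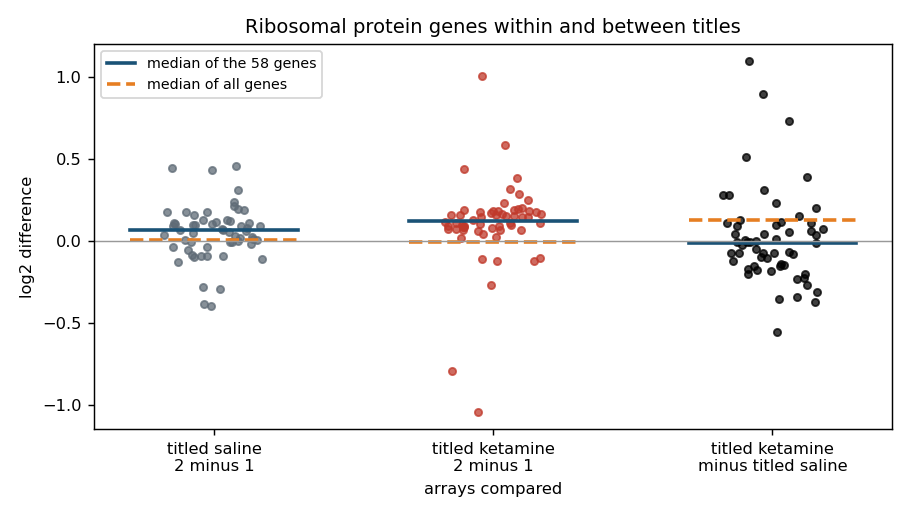
Log2 differences of the 58 ribosomal protein genes between the 2 arrays titled saline, between the 2 titled ketamine, and between the means of the titles. Points are genes (spread sideways for view), solid bars the medians of the 58 genes and dashed bars the medians of all genes. Among the arrays titled ketamine the genes sit mostly above 0, with a median of 0.12, and between titles they sit below the dashed bar at 0.13.

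The mitochondrial ribosome is built from a separate set of proteins, encoded in the nucleus. Of its 77 measured genes 18 were higher and 0 lower in limma, beside 23.2% and 9.92% of all genes, and the median difference was 0.19. At an unadjusted p under 0.05 in limma 25 were higher and 0 lower, beside 31.9% and 12.9% of all genes. After centring 5 were higher and 0 lower, beside 14.4% and 15.1% of all genes, with a median of 0.055. The largest differences were those of Mrpl33 (4.62 and 4.68 against 5.59 and 5.36, a difference of 0.83), Mrpl57 (7.38 and 7.28 against 8.06 and 8.05, 0.72) and Mrpl1 (6.86 and 6.38 against 7.23 and 7.37, 0.68), and all 3 passed on both scales. Calls in this list were fewer when any single array was left out, and so were those over the whole table. The difference between the cytosolic and the mitochondrial genes was not tested.

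Of 29 measured initiation factors of 34 listed, 4 were higher and 0 lower in limma (9 and 1 at an unadjusted p under 0.05), with a median of 0.20, and after centring 1 was higher and 2 lower. Eif2s2, the beta subunit of the factor that brings the initiator tRNA, was higher by 0.51 (adjusted p = 0.0138). Eif1ax, which helps to open the small subunit for scanning, was higher by 0.47 (0.0139), and Eif5, which triggers the GTPase step at the start codon, by 0.39 (0.0392). Among 10 elongation and termination factors Eef2k, the kinase that stops elongation by phosphorylating Eef2, was the 1 called higher (0.57, adjusted p = 0.0180), and 0 were lower (2 and 0 at an unadjusted p under 0.05). Eef1a1, the factor that carries tRNA to the ribosome, was at -0.23 (adjusted p = 0.124), and -0.37 after centring (0.0350). Eef1d was at 0.27 (0.0864).

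Other genes whose mRNAs are known to carry a TOP tract numbered 12, with 0 called by limma in either direction (2 higher and 1 lower at an unadjusted p under 0.05), a median of 0.091 and 2 called lower after centring. They included Npm1, a nucleolar chaperone, at 0.44 (8.76 and 8.38 against 8.81 and 9.22, adjusted p = 0.0972), Eef1d, and Nap1l1, a histone chaperone, at -0.27 (adjusted p = 0.0957, and 0.0273 after centring). Some of them are also in the initiation and elongation lists.

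Of 37 ribosome biogenesis genes 10 were higher and 2 lower, with a median of 0.15, and 4 and 3 after centring. Polr1d, a subunit shared by RNA polymerases I and III, was higher by 0.99 (6.89 and 6.98 against 8.10 and 7.75, adjusted p = 0.00236). Dkc1, the pseudouridine synthase of ribosomal RNA, was higher by 0.61 (0.00690), and Bysl, a small subunit assembly factor, fell by 0.57 on the log2 scale (0.0219). Of 11 genes of mTORC1 and its S6 kinase branch, Mlst8, a subunit of the complex, was the 1 called higher (0.49, adjusted p = 0.0151), with a list median of 0.015. Rheb, the GTPase that activates mTORC1, was at 0.33 (0.0761) and the kinase gene Rps6kb2 at 0.25 (0.127). The counts of calls in all these lists stand beside the 23.2% and 9.92% of all genes called higher and lower as deposited, and the 14.4% and 15.1% after centring. Their counts at an unadjusted p under 0.05 stand beside 31.9% and 12.9% of all genes. Left out in turn, each array titled ketamine left no call in these lists, as in the whole table.

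**Figure D5:**
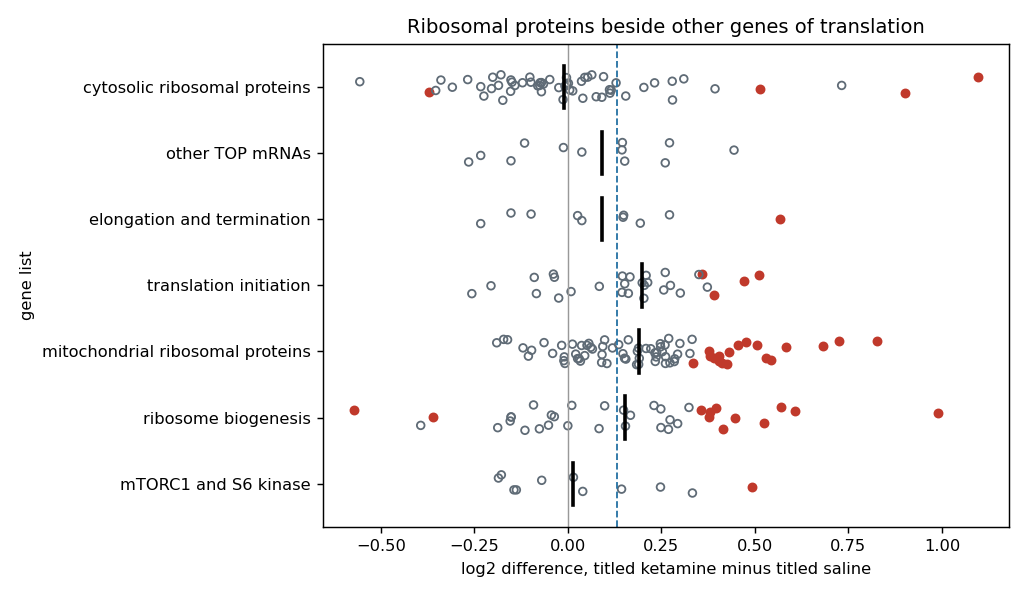
Log2 difference, titled ketamine minus titled saline, for genes of translation in 7 lists. Points are genes (spread vertically for view), filled red where the adjusted p was under 0.05, black bars are list medians, and the dashed line is the median of all genes at 0.13. The cytosolic ribosomal protein genes and the mTORC1 list have medians near 0, and the mitochondrial ribosomal and initiation lists have medians of 0.19 and 0.20.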

How the data were processed

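The authors deposited log2 values for 4 arrays. Per the labels they come from RMA run in the Affymetrix Expression Console (version and genome build not given in the sources used here). RMA subtracts background, normalizes between arrays and gives one value per row of probes, so low values are compressed and a shift of most genes would be partly removed. Of 35556 rows, 21789 had exactly 1 gene symbol in the platform annotation, 1621 several and 12146 none. Of the ribosomal protein genes, 58 of 58 matched a RefSeq table (GRCm38.p6) with equal symbols, 57 as protein coding.

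Rows with 1 symbol were tested with limma (version 3.58.1, lmFit and eBayes) in R (version 4.3.3) with Benjamini-Hochberg adjustment over all of them once on the deposited values and once with array medians set equal. A difference is one of log2 group means, and the fold threshold was 1.3. Groups follow the titles. In limma the SE and p-value of a row rest on the spread between these samples and on a variance shared across all rows. They are therefore not the error of a single gene alone. An exact two-sided permutation test of 2 arrays against 2 can go no lower than 0.333. The number of arrays limits the precision. The test was run on simulated data before use.

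The members and lists were chosen with earlier results of these data known. Genes were named by rule: the 8 largest and 8 smallest differences, the 3 highest and 3 lowest levels, relatives of standard genes, genes with 3 or more rows, the stalk, 5S, mRNA entry and exit genes, Rps6, Rps27a (not analysed here), genes over 0.5 apart within a title, and the 3 largest differences of each pathway list. Rpl23, Rpl26, Rps19 and the rows with small nucleolar RNAs were named after their values were seen. Alternatives covered scaling, filters, rows per gene, moderation, a replicate block and leaving out single arrays. Some genes are not reported here.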

Additional observations from a re-analysis of the deposited data

How the results depend on the processing

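The 4 arrays limit every call. Leaving out 1 array at a time, the ribosomal protein genes called higher numbered 0 to 2 and lower 0 to 0, and those past 1.3-fold 4 to 7 higher and 0 to 4 lower. Their median ranged from -0.099 to 0.041, that of the large subunit from -0.085 to 0.049 and of the small subunit from -0.14 to -0.0058. Genes called higher then numbered 0 to 10 for the mitochondrial ribosome, 0 to 2 for initiation, 0 to 1 for elongation, 0 to 6 (lower 0 to 1) for biogenesis and 0 to 1 for mTORC1. Rpl10l ranged from -0.11 to 0.90. After centring, 7 ribosomal protein genes were lower, 3 and 6 were past 1.3-fold higher and lower, the medians of all, large and small subunit genes were -0.15, -0.14 and -0.21, and 5 mitochondrial, 1 initiation and 4 biogenesis genes were higher, with 2 initiation, 1 elongation and 2 TOP genes lower. After quantile normalization these numbers were 4 lower, 3 and 5 past 1.3-fold, medians of -0.13, -0.089 and -0.20, 7 mitochondrial, 2 initiation, 5 biogenesis, 0 elongation and 0 mTORC1 genes higher, and 1 initiation and 1 TOP gene lower. With rows at or above the median level, 1 ribosomal protein gene was higher, 4 were lower and 1 was past 1.3-fold higher. Of the other lists, 22 mitochondrial, 13 biogenesis, 8 initiation, 2 elongation, 1 TOP and 2 mTORC1 genes were higher there. Lower were 3 biogenesis, 1 initiation and 1 TOP gene. No share of all genes called stands beside the counts after quantile normalization, at the median level or without 1 array titled saline. By direction, the same holds for the mean over rows, trend with robust moderation and the replicate block with or without centring. None of these counts is therefore a result about the lists. Counting all rows gave 5 lower and 3 past 1.3-fold lower, the mean over rows 2 and 2, the standard genes alone 3 past 1.3-fold higher, and trend with robust moderation 6 lower, with Rpl30 at an adjusted p of 0.0749. The cause was not tested. The correlation of array differences between titles was 0.034 over all rows and 0.29 over the ribosomal protein genes. These values cannot show whether the replicate numbers pair the arrays. With the replicate block 4 ribosomal protein genes were higher, Rpl12 added (adjusted p = 0.00516), 4 were lower, Rps2 among them (0.00284), and 1 TOP gene was higher, with 8250 rows called in all, and with the block and centring 10 were lower. Chosen after seeing the data, a mean of at least 9 gave 1 higher, 4 lower and 0 past 1.3-fold higher, genes above the low-signal reference gave 3 past 1.3-fold higher, and rows with several symbols a median of -0.0995.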
